A study of Rattus norvegicus with 12 samples.

Results

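The genes followed here encode 9 proteins of the dense-core secretory granule of β-cells or, for Scgn, of the cytosol around it: Chga, Chgb, Scg2, Scg3, Vgf, Ptprn, Ptprn2, Slc30a8 and Scgn. They were taken by gene symbol from a count table of 34034 symbols, and all 9 were among the 14324 genes tested. The table covers INS-1E, a WT line of insulin-secreting cells derived from a rat insulinoma, so the values describe 1 tumour-derived line and not islets. Bulk RNA-seq was made from 4 groups of 3 libraries each: untreated cells, cells preconditioned for 72 h with IL-1β at 10 pg/ml (IL-1βlow), cells challenged for 16 h with a mix of IL-1β at 100 pg/ml and IFN-γ at 5 ng/ml (CYT), and cells given the preconditioning, a change of medium and then the same challenge (IL-1βlow + CYT). All groups were grown in the same medium. The question was how preconditioning bears on the response of β-cells to a cytotoxic cytokine challenge.

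Dense-core granules form at the trans-Golgi network, where granins, acidic proteins that bind calcium and clump together at low pH, are packed with the hormone. Inside the maturing granule, prohormone convertases cut the hormone precursor, zinc pumped in by a transporter crystallizes insulin, and proton pumps keep the lumen acidic. Granins are themselves cut into peptides that are released with insulin. Several granule proteins, among them the products of Ptprn, Ptprn2 and Slc30a8, are targets of autoantibodies in autoimmune diabetes.

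Total counts ran from 15812640 to 20246806 per library, and the ribosomal RNA gene Rn45s took 6.89% to 11.1% of them. The 10 β-cell markers summed to 32985 to 39390 CPM (counts scaled to library size and TMM factor) in untreated, 28838 to 33840 in IL-1βlow, 10663 to 10970 in CYT and 15524 to 20132 CPM in IL-1βlow + CYT libraries. Ins2, an insulin gene, was at 7465 to 9089, 4779 to 4987, 1269 to 1314 and 1582 to 2061 CPM in the same order. These markers did not move alike. Group means in that order were 890, 818, 302 and 531 CPM for Mafa, 266, 297, 103 and 263 CPM for Pdx1, and 434, 352, 397 and 596 CPM for Slc2a2. G6pc2, another of these markers, had at most 4 counts in any library and was not tested. The 5 markers of α-cells summed to 404 to 567 CPM in untreated, 346 to 416 in IL-1βlow, 203 to 227 in CYT and 224 to 313 CPM in IL-1βlow + CYT libraries, with Irx2 at 0 in every library. Of the leukocyte markers, Ptprc and Itgam had no count in any library. The summed level of the 6 leukocyte markers was 0.355 to 1.26 CPM in untreated, 0.615 to 1.23 in IL-1βlow, 2.10 to 3.21 in CYT and 3.04 to 4.52 in IL-1βlow + CYT libraries. The 4 endothelial markers summed to 3.78 to 5.44 CPM in untreated, 3.76 to 6.81 in IL-1βlow, 3.32 to 4.84 in CYT and 6.63 to 9.10 CPM in IL-1βlow + CYT libraries, with no overlap between CYT and IL-1βlow + CYT libraries. The 5 fibroblast markers summed to 0.401 to 0.651 CPM in untreated, 0.615 to 1.54 in IL-1βlow, 0.716 to 0.991 in CYT and 1.13 to 2.19 CPM in IL-1βlow + CYT libraries. Of these Lum and Dcn were at 0 in every library, and Col1a2, the one that was tested, rose from 0.175 to 0.326 CPM in CYT to 0.773 to 1.54 CPM in IL-1βlow + CYT libraries (log2 fold change 2.30, adjusted p = 0.0039, edgeR). Col1a2 had at most 6 counts in any CYT library. Col1a1 did not rise with it, at 0.409 to 0.652 CPM in CYT and 0.304 to 0.646 CPM in IL-1βlow + CYT libraries. The part of these lists in the results was not tested. A gene passed with an adjusted p under 0.01 in edgeR's quasi-likelihood test (Benjamini-Hochberg over the 14324 genes) and a log2 fold change beyond 1 in either direction, or beyond 0.6 between IL-1βlow and untreated cells. With 3 libraries on each side, the smallest p of an exact permutation test is 0.1.

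Together the 9 genes took 2.52% ± 0.286 (SD, n = 3) of all counts in untreated cells and 2.52% ± 0.222 in IL-1βlow cells. Their share was 1.19% ± 0.0930 in CYT cells and 1.62% ± 0.10 in IL-1βlow + CYT cells. The highest CYT library, at 1.27%, lay under the lowest IL-1βlow + CYT library, at 1.56%, and that group's highest, at 1.73%, lay under the lowest untreated library, at 2.20%. Chga and Chgb made up 82.1% ± 1.93 of the counts of the 9 genes in untreated, 81.1% ± 2.38 in IL-1βlow, 74.3% ± 3.48 in CYT and 73.0% ± 2.42 in IL-1βlow + CYT cells. In bulk RNA, fewer cells with a transcript and less of it per cell cannot be told apart.

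**Figure D1:**
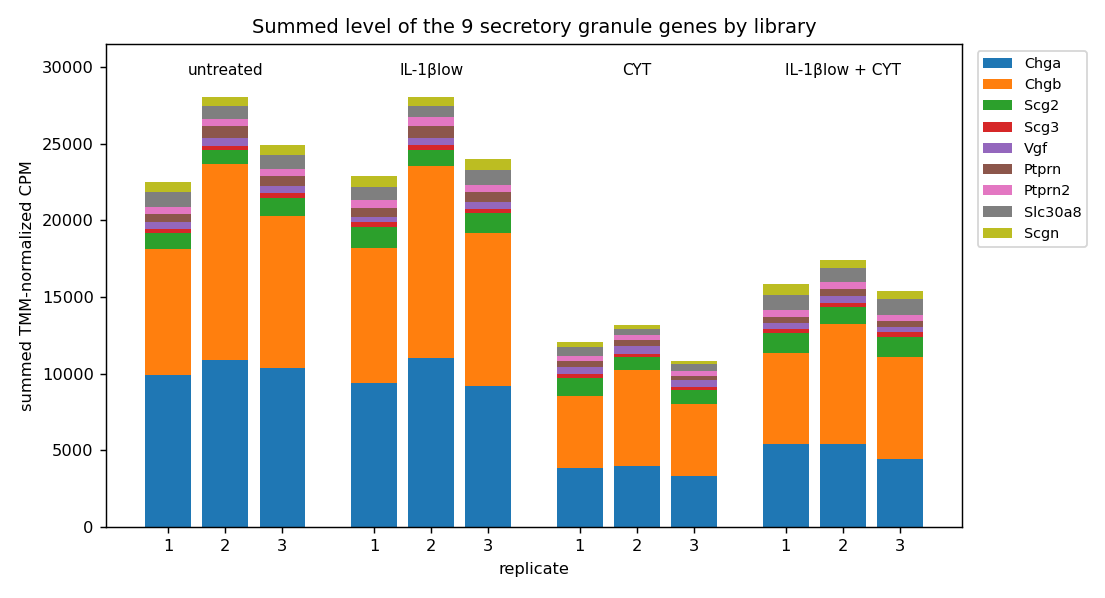
Stacked bars give the summed TMM-normalized CPM of the 9 granule genes (y axis) in each of the 12 libraries (x axis, replicate number within group), with 1 colour per gene; CPM counts reads and is not corrected for transcript length, so segments are comparable between libraries and not between genes. Sums ran from 22480 to 28043 CPM in untreated, 22911 to 28062 in IL-1βlow, 10819 to 13139 in CYT and 15409 to 17438 in IL-1βlow + CYT libraries.

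In CYT against untreated cells, Chga and Scgn fell and none of the 9 genes rose. By the adjusted p alone, without the fold change minimum, 7 of the 9 were lower: Chga, Chgb, Scg3, Ptprn, Ptprn2, Slc30a8 and Scgn. Among all genes tested, 11.6% passed as lower with the minimum and 24.5% without it. In those 7 genes every CYT library was under every untreated library, which held in the lower direction for 35.3% of all genes. The median log2 fold change of the 9 genes was -0.94, against -0.04 over all genes tested.

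In IL-1βlow + CYT against CYT cells, Slc30a8 and Scgn rose and none of the 9 fell. By the adjusted p alone 5 were higher, namely Chga, Scg3, Ptprn2, Slc30a8 and Scgn. The corresponding shares of all genes were 6.54% with the minimum and 17.1% without it. In 6 of the 9 genes every IL-1βlow + CYT library was above every CYT library and in 1, Vgf, every one was below, while 26.8% of all genes separated upward and 27.6% downward. The median over the 9 genes was 0.37 and over all genes 0.02. Same-numbered CYT and IL-1βlow + CYT libraries deviated together, and with the replicate number as a block 8 of the 9 passed by the adjusted p alone, against 45.3% of all genes. Those 8 were Chga, Chgb, Scg2, Scg3, Ptprn2, Slc30a8 and Scgn, which were higher, and Vgf, which was lower.

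**Figure D2:**
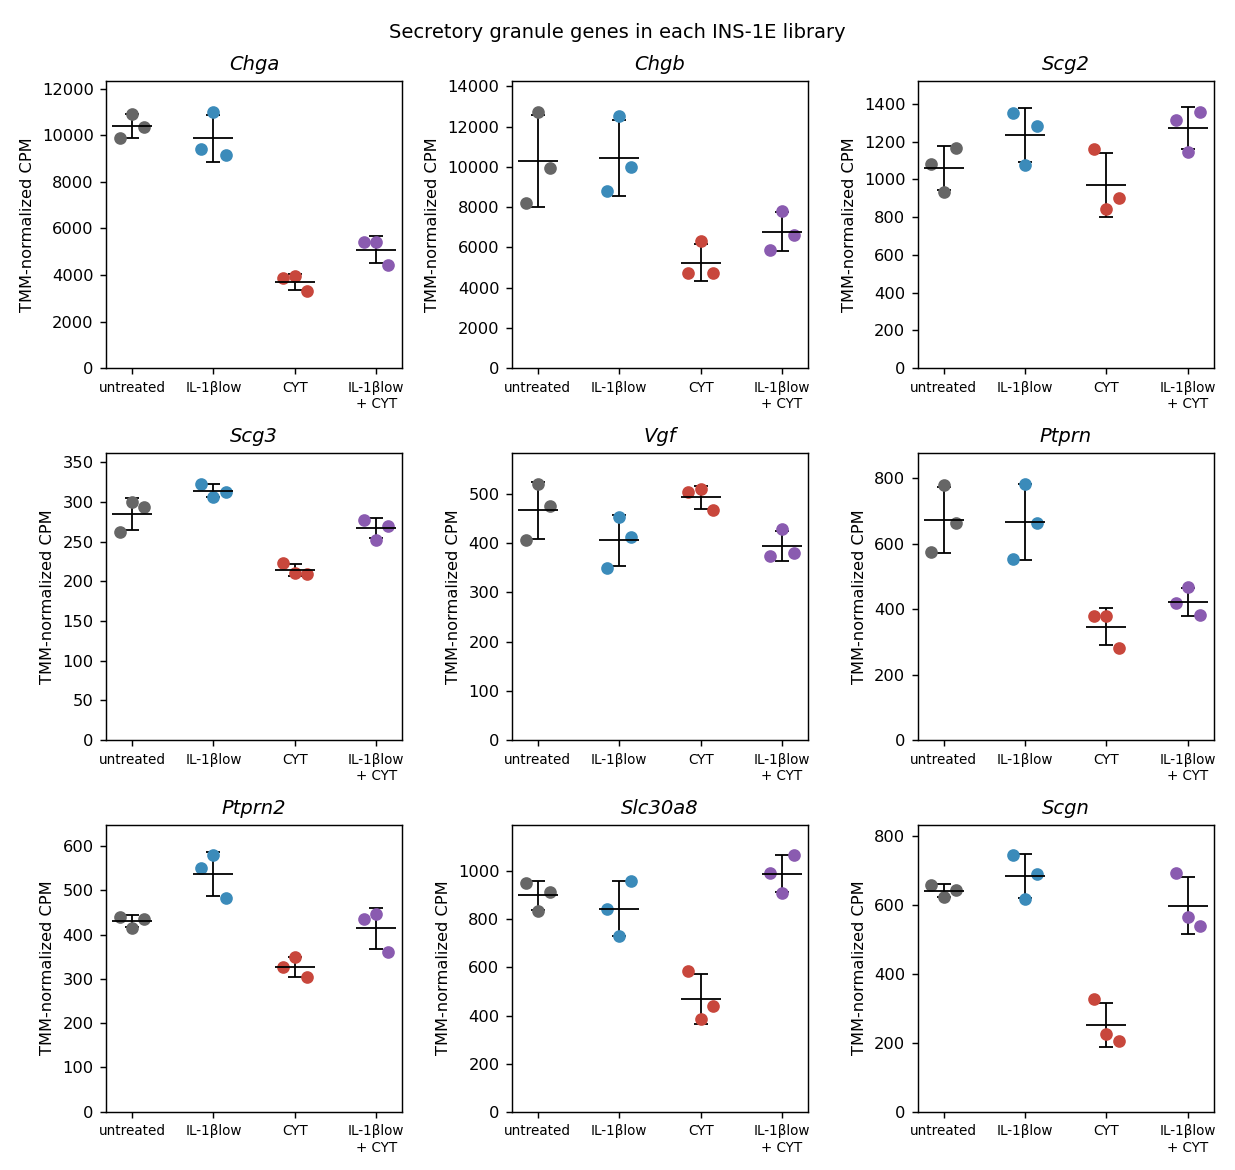
Each panel shows 1 gene, with points for the TMM-normalized CPM (y axis, from 0) of the 3 libraries of each group (x axis) and bars for the group mean ± SD. IL-1βlow + CYT libraries overlap the untreated range for Slc30a8 and Scgn and lie below it for Chga, Chgb and Ptprn, and Scg2 and Vgf overlap between untreated and CYT libraries.

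Chga encodes chromogranin A, a luminal granin and precursor of peptides such as vasostatin. Its level was 9884, 10904 and 10343 CPM in the untreated libraries (replicates 1 to 3) and 9410, 11001 and 9158 CPM in the IL-1βlow libraries. CYT libraries held 3863, 3946 and 3299 CPM. Every untreated library was above every CYT library, and the IL-1βlow libraries lay on both sides of the untreated ones. Chga fell by a log2 fold change of -1.49 with CYT (SE, the standard error, 0.12, with an adjusted p = 7.6e-08), to 35.7% of the untreated mean. IL-1βlow + CYT libraries were at 5421, 5397 and 4421 CPM, above every CYT library and below every untreated one. That difference from CYT cells was 0.46 on the log2 scale (SE 0.11, adjusted p = 0.0043, edgeR), under the minimum. Against untreated cells Chga remained lower by a log2 fold change of -1.03 (SE 0.12, adjusted p = 1.1e-05), the only one of the 9 genes to pass in that comparison. It rests close to the minimum, since it was -0.94 without IL-1βlow + CYT replicate 3 and -0.99 without a filter on low counts, and then did not pass.

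Chgb encodes chromogranin B, another luminal granin. It was at 8223, 12733 and 9955 CPM in untreated and 8786, 12514 and 10012 CPM in IL-1βlow libraries. Replicate 2 was the highest library in all 4 groups, and the SD within untreated cells was 2275 CPM. CYT libraries held 4701, 6291 and 4709 CPM, all below the untreated range. The log2 fold change was -0.98 (SE 0.18, adjusted p = 3e-04, edgeR), short of the minimum of 1. Without untreated replicate 1, CYT replicate 2 or untreated replicate 3 it was -1.11, -1.13 or -1.002 and passed. IL-1βlow + CYT libraries had 5891, 7825 and 6634 CPM, which overlapped the CYT libraries. The difference from CYT cells was 0.37 (SE 0.18, adjusted p = 0.095 in edgeR, and 6.6e-04 with the block). At 65.8% of the untreated mean, IL-1βlow + CYT cells had a log2 fold change of -0.60 against untreated cells (SE 0.18, adjusted p = 0.025).

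The granin genes Scg2, Scg3 and Vgf did not pass in any comparison. Scg2 encodes secretogranin II, the precursor of secretoneurin. Its level was 1081, 935 and 1164 CPM in untreated, 1161, 845 and 903 CPM in CYT and 1316, 1146 and 1358 CPM in IL-1βlow + CYT libraries. Untreated and CYT libraries overlapped, with a log2 fold change of -0.13 and a 95% interval from -0.41 to 0.15. IL-1βlow libraries, at 1352, 1074 and 1281 CPM, also overlapped the untreated ones. In IL-1βlow + CYT against CYT cells Scg2 differed by 0.39 (SE 0.13, adjusted p = 0.021, edgeR, 6.8e-04 with the block), under the minimum.

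Vgf encodes a neuroendocrine protein first found as induced by nerve growth factor and cut into several peptides. It was at 406, 521 and 475 CPM in untreated and 504, 510 and 467 CPM in CYT libraries, which overlapped. The log2 fold change was 0.08 with a 95% interval from -0.16 to 0.31, the only positive value among the 9 genes in this comparison, and -0.0028 without untreated replicate 1. IL-1βlow + CYT libraries, at 373, 429 and 380 CPM, were all below the CYT libraries. Vgf was the gene whose sign differed from the other 8 there, at -0.32 (SE 0.11, adjusted p = 0.023, 0.0019 with the block, edgeR).

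Scg3 encodes secretogranin III, which binds chromogranin A and the cholesterol-rich granule membrane. Its values were 262, 300 and 293 CPM in untreated, 223, 210 and 209 CPM in CYT, and 277, 252 and 270 CPM in IL-1βlow + CYT libraries. CYT libraries were lowest, without overlap with either group. The log2 fold change with CYT was -0.41 (SE 0.08, adjusted p = 2.8e-04), and that of IL-1βlow + CYT against CYT cells was 0.32 (SE 0.08, adjusted p = 0.0030). IL-1βlow libraries had 323, 306 and 313 CPM, all above the untreated libraries, a difference of 0.14 that did not pass (adjusted p = 0.41, edgeR).

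Of the genes with a promoter window in the RefSeq table used here (7 of the 9, assembly GRCr8, 250 bases before to 50 after the start), Scg2 and Vgf were the ones that held the full cyclic AMP response element TGACGTCA. The element occurs in 1.83% of the 33469 windows of that table, searched on both strands. The half-site TGACG, counted outside a full element, occurs in 20% of windows and was present in Scg3 and, at 2 places, in Ptprn. The stretches that hold these matches are printed to show the letters and their surroundings, with the matches in capitals.
Scg2 promoter, GRCr8 chr9:88256932-88257019, minus strand: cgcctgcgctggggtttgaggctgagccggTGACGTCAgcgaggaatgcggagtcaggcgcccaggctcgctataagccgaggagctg
Vgf promoter, GRCr8 chr12:25277053-25277140, minus strand: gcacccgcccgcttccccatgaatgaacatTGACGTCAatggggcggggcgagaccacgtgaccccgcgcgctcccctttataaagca
Ptprn promoter, GRCr8 chr9:84204900-84205021, minus strand: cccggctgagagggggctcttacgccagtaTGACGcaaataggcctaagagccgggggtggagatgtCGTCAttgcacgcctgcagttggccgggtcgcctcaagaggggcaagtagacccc
Scg3 promoter, GRCr8 chr8:85322499-85322583, minus strand: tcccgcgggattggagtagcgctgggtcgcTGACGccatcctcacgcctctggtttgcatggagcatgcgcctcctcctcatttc
The element began 123 bases before the annotated start of Scg2 and 90 bases before that of Vgf. The windows of Chgb, Ptprn2 and Scgn held neither form. The γ-interferon activation site TTCNNNGAA, found in 8.87% of windows, was present in Scg2 alone among the 7, and the κB consensus, found in 4.18%, in none of them. These matches describe letters in a window, and binding was not measured.

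Ptprn and Ptprn2 encode IA-2 and phogrin, a pair of paralogous receptor-type tyrosine phosphatases that span the granule membrane and lack ordinary phosphatase activity. Ptprn was at 575, 779 and 664 CPM in untreated and 554, 784 and 663 CPM in IL-1βlow libraries. CYT libraries were all under this range, at 378, 379 and 281 CPM. The log2 fold change of -0.96 (SE 0.15, adjusted p = 7e-05, edgeR) stayed under the minimum, although it was -1.05 without untreated replicate 1 and -1.03 without CYT replicate 2 and then passed. IL-1βlow + CYT libraries, at 418, 467 and 382 CPM, lay just above the CYT libraries, by 0.29 (SE 0.15, adjusted p = 0.12, 0.028 with the block). They also lay below every untreated library, with a log2 fold change of -0.67 (SE 0.15, adjusted p = 0.0043) under the minimum.

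Ptprn2 had 441, 416 and 436 CPM in untreated, 327, 350 and 303 CPM in CYT and 435, 447 and 361 CPM in IL-1βlow + CYT libraries. CYT libraries were lowest, while untreated and IL-1βlow + CYT libraries overlapped. The CYT difference was -0.40 on the log2 scale (SE 0.10, adjusted p = 0.0026), and IL-1βlow + CYT cells were above CYT cells by 0.34 (SE 0.10, adjusted p = 0.0094, edgeR), both under the minimum. IL-1βlow libraries, at 551, 579 and 483 CPM, were all above the untreated ones, by 0.32 (SE 0.10), with an adjusted p of 0.15. The log2 ratio of Ptprn to Ptprn2 ran from 0.38 to 0.91 in untreated and from -0.11 to 0.21 in CYT libraries. The ranges did not overlap (difference of means -0.56, two-sided exact permutation test, p = 0.1, the smallest possible, and 0.38 after adjustment over 15 ratio comparisons). Both genes overlap other annotated transcripts in GRCr8, and those with a row in the count table held at most 65 counts in any library.

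Slc30a8 encodes ZnT8, the transporter that carries zinc into the insulin granule. It was at 950, 834 and 913 CPM in untreated and 843, 731 and 959 CPM in IL-1βlow libraries. CYT libraries held 583, 383 and 441 CPM, all under both groups. The CYT log2 fold change was -0.94 (SE 0.14, adjusted p = 4.3e-05, edgeR), short of the minimum, and -1.09 without CYT replicate 1, where it passed. IL-1βlow + CYT libraries were at 993, 911 and 1066 CPM, within or above the untreated range. Slc30a8 rose by 1.08 over CYT cells (SE 0.14, adjusted p = 2.2e-05), to 110% of the untreated mean, though without CYT replicate 2 the rise was 0.95 and did not pass. Against untreated cells the difference was 0.14 with a 95% interval from -0.16 to 0.43.

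Scgn encodes secretagogin, a cytosolic calcium sensor with EF-hands that takes part in insulin release. Untreated libraries had 657, 621 and 643 CPM and IL-1βlow libraries 743, 617 and 689 CPM. In CYT libraries it was at 325, 224 and 206 CPM. Scgn fell with CYT by a log2 fold change of -1.35 (SE 0.15, adjusted p = 2.6e-06), to 39.3% of the untreated mean. IL-1βlow + CYT libraries were at 691, 564 and 537 CPM, above all CYT libraries and overlapping the untreated ones. Scgn rose over CYT cells by 1.25 (SE 0.15, adjusted p = 1.1e-05, edgeR), and its difference from untreated cells was -0.10 with a 95% interval from -0.41 to 0.21. In GRCr8 Scgn overlaps a pseudogene, which had 7 to 83 counts per library.

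**Figure D3:**
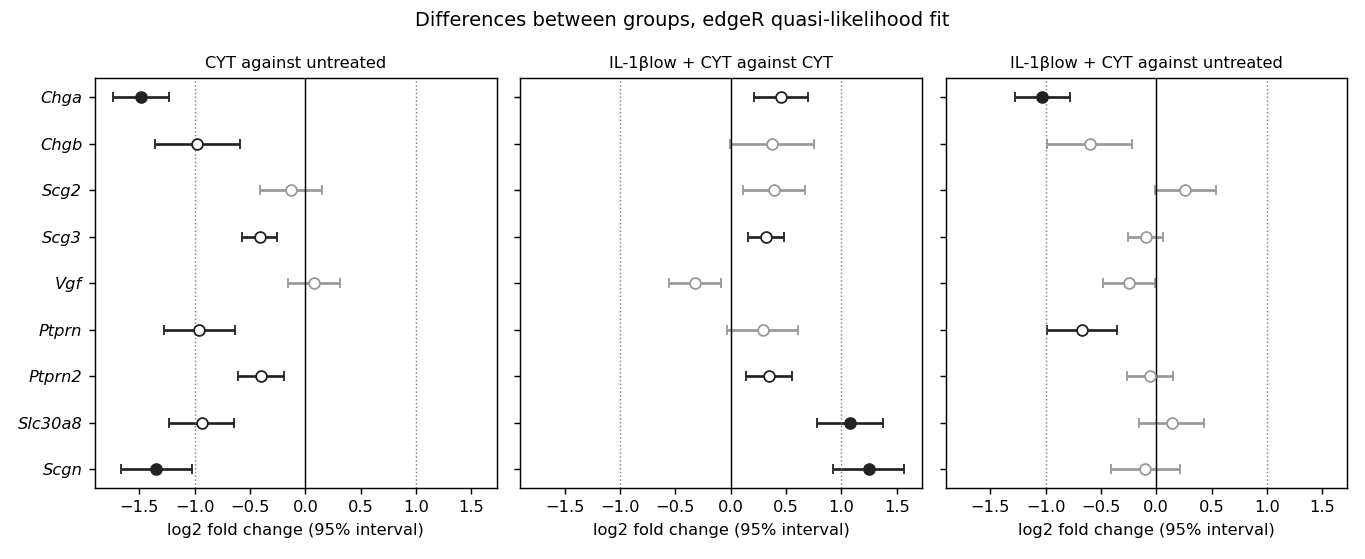
Points are log2 fold changes (x axis) of the 9 genes (y axis) with 95% intervals in 3 comparisons; filled points passed, black open points had an adjusted p under 0.01 but not the fold change minimum (dotted lines at -1 and 1), and grey points had neither. Slc30a8 (1.08) and Scgn (1.25) are the filled points of the middle panel, and Chga (-1.03) that of the right panel.

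The CYT response itself was compared between preconditioned and other cells by the interaction term of the fit. The interaction passed for Slc30a8 (1.17, SE 0.20, adjusted p = 4.4e-04) and Scgn (1.15, SE 0.21, adjusted p = 7.4e-04, edgeR), and among all genes 5.48% passed in this direction. When the test was made against the minimum itself (glmTreat), neither interaction passed, nor did the fall of Scgn with CYT, the rises of Slc30a8 and Scgn over CYT cells or the difference of Chga from untreated cells, while the fall of Chga with CYT did. The log2 fold change of Slc30a8 with CYT was -0.94 in cells without preconditioning and 0.23 after it, where the adjusted p was 0.36. For Scgn the values were -1.35 and -0.19, the latter with an adjusted p of 0.50. Chga had an interaction of 0.53 (SE 0.16, adjusted p = 0.019, and 0.0017 with the block), under the minimum. The interaction includes the untreated libraries, whose numbers did not pair them with other groups, so the blocked value carries that limit. The CYT response of Chga was -1.49 without and -0.96 after preconditioning. For Chgb, Ptprn, Scg3, Scg2, Vgf and Ptprn2 the interaction ran from -0.12 to 0.36, with adjusted p from 0.21 to 0.91. The responses of Ptprn2 were -0.40 and -0.38, with an interaction of 0.02 and a 95% interval from -0.27 to 0.32.

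In IL-1βlow + CYT against IL-1βlow cells none of the 9 genes passed, where 3.88% of all genes did in either direction. Chga would have passed, at -1.002 to -1.02, without IL-1βlow replicate 1 or 3 or IL-1βlow + CYT replicate 1 or 2. By the adjusted p alone Chga (-0.96, adjusted p = 3.6e-05) and Ptprn (-0.66, adjusted p = 0.0073, edgeR) were lower, where 2.63% of all genes were. Same-numbered libraries of these groups also deviated together, and with the block Chgb and Ptprn2 were lower as well, while 11.8% of all genes passed in either direction. In 5 of the 9 genes every IL-1βlow + CYT library was below every IL-1βlow library, against 12.9% of all genes. In IL-1βlow + CYT against untreated cells 2.14% of all genes passed as lower, and 17.1% separated downward, as did Chga, Chgb and Ptprn.

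**Figure D4:**
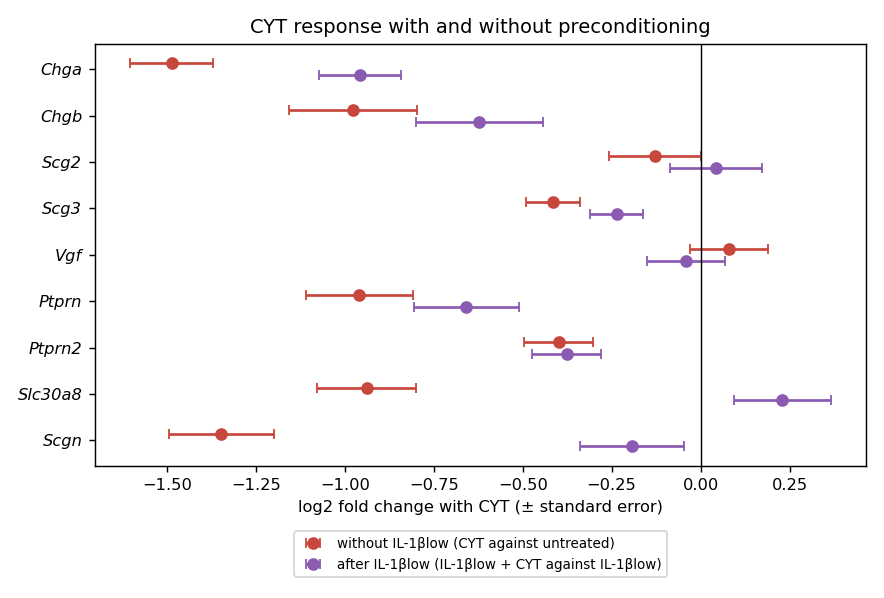
For each gene (y axis) the log2 fold change with CYT (x axis, bars ± SE) is drawn for cells without IL-1βlow (red, CYT against untreated) and after it (purple, IL-1βlow + CYT against IL-1βlow). The points lie farthest apart for Slc30a8 (-0.94 and 0.23) and Scgn (-1.35 and -0.19) and closest for Ptprn2 (-0.40 and -0.38).

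With IL-1βlow alone 0 of the 9 genes passed in edgeR, where 0.433% of all genes passed. The smallest p of the 9 was that of Ptprn2, 0.0053 unadjusted and 0.15 adjusted in edgeR. DESeq2's Wald test and exactTest also called 0 of the 9. Log2 fold changes ran from -0.20 for Vgf to 0.32 for Ptprn2. Scg3 and Ptprn2 were the 2 genes in which every IL-1βlow library was above every untreated library, as were 13% of all genes. The median over the 9 genes was 0.02 and over all genes 0.00.

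Other genes of the granule were grouped in lists. Over all genes 10% rose with CYT, and 5.92% fell from CYT to IL-1βlow + CYT cells. Of the 11 granule hormone and processing genes, 7 fell and none rose with CYT (median -1.27 on the log2 scale). By the adjusted p alone all 11 were lower, as were 24.5% of all genes. Pcsk1, the convertase that opens proinsulin cleavage, went from 145 ± 19.8 CPM in untreated to 12.7 ± 1.85 in CYT and 51.7 ± 7.15 in IL-1βlow + CYT cells (SD, n = 3). Ins2 fell by a log2 fold change of -2.64 (SE 0.12, adjusted p = 2.2e-10, edgeR) and differed by 0.45 between IL-1βlow + CYT and CYT cells, under the minimum. In that comparison 2 of the 11 rose, Pcsk1 (2.03) and Pcsk1n (1.45), and the median was 0.57. By the adjusted p alone 8 of the 11 were higher there, as were 17.1% of all genes. Pcsk1n encodes proSAAS, a granin-like inhibitor of Pcsk1, and went from 440 ± 29.8 CPM in untreated to 183 ± 27.8 in CYT, and had 499 ± 88.6 CPM in IL-1βlow + CYT cells.

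Of 16 other secreted peptide genes 7 were expressed highly enough to test, and 3 fell and 1 rose with CYT (median -1.35). The riser was Adm, the vasodilator adrenomedullin, which stayed within 3 counts per untreated library and had 12.9 to 19.4 CPM in CYT and 0.730 to 2.26 CPM in IL-1βlow + CYT libraries. Gast, the gastrin gene, had 0.769 to 1.49 CPM in untreated, at most 3 counts in any CYT library and 0.796 to 1.70 CPM in IL-1βlow + CYT libraries. Between IL-1βlow + CYT and CYT cells Gast rose and Adm fell, and the median was -0.44.

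Of the 15 genes of granule biogenesis and maturation (median -0.24) 1 rose with CYT, Stx6, a syntaxin of the trans-Golgi network that acts in granule maturation (1.54, SE 0.11, adjusted p = 3.7e-08, edgeR). None of the 15 passed between IL-1βlow + CYT and CYT cells (median -0.07). Of the 9 tested genes of granule acidification and uptake 1 fell with CYT, the vesicular nucleotide transporter Slc17a9 (-1.27, SE 0.16), with a median of 0.15. By the adjusted p alone 1 was lower and 4 were higher, the proton pump genes Atp6ap2 (0.65), Atp6v1b2 (0.51), Atp6v0d1 (0.49) and Atp6v0a1 (0.35). Over all 14324 genes, 7116 passed that rule in either direction. None of the 9 passed between IL-1βlow + CYT and CYT cells (median -0.24).

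The zinc handling list, which leaves out Slc30a8, had 21 tested genes, of which 2 rose and 1 fell with CYT (median -0.16). Those that rose were the metallothioneins Mt1 and Mt2A, which bind zinc in the cytosol. The gene that fell was another metallothionein, Mt3 (-1.27, SE 0.24, adjusted p = 4.1e-04, edgeR), so the metallothioneins did not move as a class. Mt1 went from 7.11 ± 0.523 CPM in untreated to 65.3 ± 8.66 in CYT, and had 30.7 ± 6.37 CPM in IL-1βlow + CYT cells, and Mt2A at most at 3 counts in untreated and at 4.07 to 10.7 CPM in CYT libraries. From CYT to IL-1βlow + CYT cells Mt1 and Mt2A fell, while 1 gene of the list rose (median 0.06). That gene was again Mt3 (1.07, SE 0.24, adjusted p = 0.0021, edgeR).

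Among 12 tested receptor-type tyrosine phosphatases other than Ptprn and Ptprn2, 1 rose with CYT, Ptpro (1.97), and 2 fell, among them Ptpru (-1.86), with a median of 0.14. None passed between IL-1βlow + CYT and CYT cells, where the median was -0.00. Of 9 tested EF-hand calcium sensors other than Scgn, 2 rose and 2 fell with CYT (median -0.10). Vsnl1, a neuronal calcium sensor, fell by a log2 fold change of -2.46 (SE 0.28, adjusted p = 3.3e-06, edgeR). Pvalb, parvalbumin, rose to 1.03 to 1.48 CPM in CYT libraries from at most 2 counts in untreated libraries. Between IL-1βlow + CYT and CYT cells 1 rose and 2 fell (median 0.50). The gene that rose was the calcium buffer Calb1, from 11.4 ± 1.90 to 39.1 ± 3.05 CPM, and it was also above untreated cells, at 10.1 ± 1.55 CPM.

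Of 10 known regulators of granule genes 1 rose and 2 fell with CYT (median -0.58), and none passed between IL-1βlow + CYT and CYT cells (median 0.26). Crem, which encodes activators and repressors that bind the cyclic AMP response element, fell from 46.4 ± 5.84 to 7.44 ± 1.93 CPM and was at 11.96 ± 2.20 CPM in IL-1βlow + CYT cells. Rest, a repressor of neuroendocrine genes, rose from 0.849 ± 0.196 to 3.26 ± 0.820 CPM, a log2 fold change of 1.94 (SE 0.31, adjusted p = 7.8e-05, edgeR), and was at 2.23 ± 0.691 CPM in IL-1βlow + CYT cells.

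**Figure D5:**
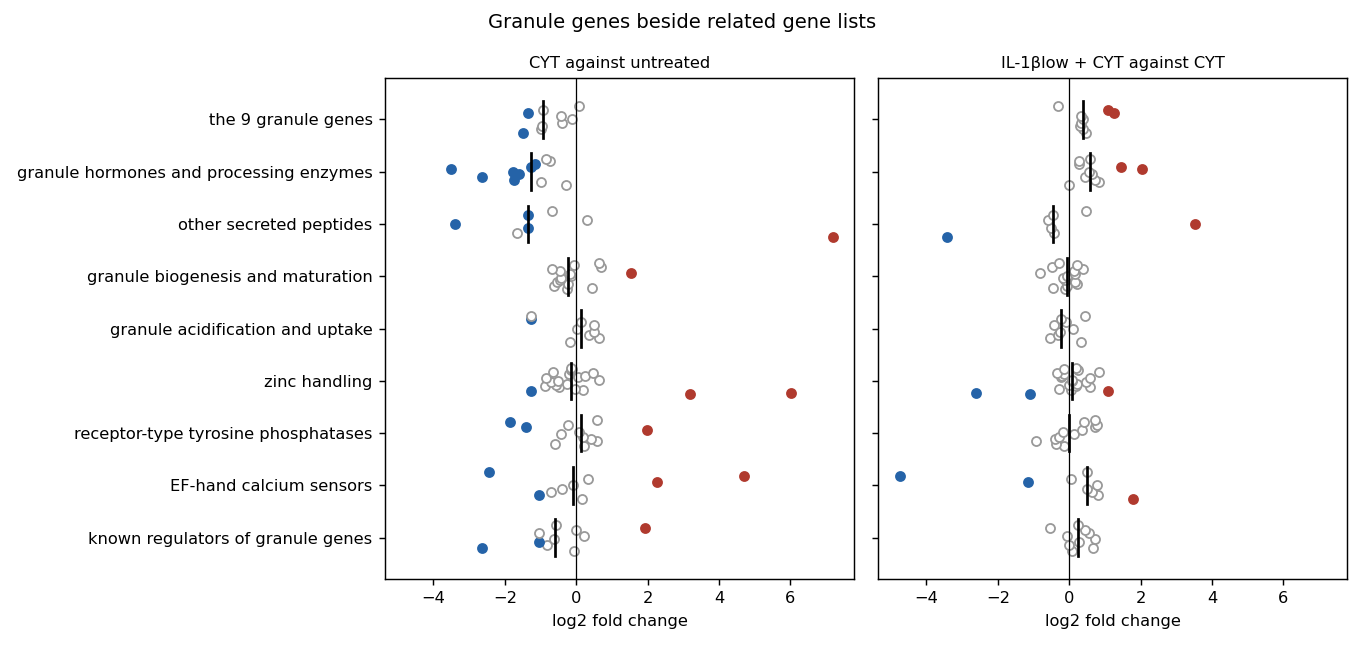
Each point is the log2 fold change (x axis) of 1 tested gene in the list named on the y axis, for CYT against untreated (left) and IL-1βlow + CYT against CYT cells (right); red points rose, blue points fell, open points did not pass, and black bars are list medians. The hormone and processing genes (median -1.27) and the 9 granule genes (-0.94) lie mostly left of 0 with CYT, while the acidification list (0.15) lies near 0. Fitted values of Adm, Gast, Mt2A and Pvalb rest on groups with at most 3 counts per library.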

How the data were processed

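Per the labels and the study's methods, the authors prepared TruSeq libraries, used FastQC and rfastp for read quality and trimming, and obtained gene counts by featureCounts after Rsubread alignment (build mRatBN7.2). The deposited table holds these raw counts, not normalized, and the strand setting is not given in the sources used here. All 12 columns were matched by library name and 0 were left unused. Depth bounds counting error only, as reads carried no molecular identifiers, and nothing in the labels says that libraries came from separate cultures beyond calling them biological replicates.

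With R 4.3.3, genes reaching more than 1 CPM in 2 or more libraries were scaled by TMM and fitted over all 12 libraries with edgeR 4.0.16 (quasi-likelihood test, 8 residual degrees of freedom, Benjamini-Hochberg adjustment), with the study's thresholds. The study used exactTest, here an alternative. The 9 genes, the lists and the rule for naming genes (all 9, and per list the 2 largest changes that passed with CYT and between IL-1βlow + CYT and CYT cells) were chosen with earlier results of these data known. Mt3 was named outside this rule, because it moved against Mt1 and Mt2A. Alternatives were RLE factors, other filters, DESeq2 1.42.0, exactTest, glmTreat, other thresholds, only the groups compared, Rn45s left out, a replicate block and each library left out.

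Same-numbered libraries deviated together (every correlation over 0.1) between CYT and IL-1βlow + CYT, from 0.12 to 0.47, between IL-1βlow and IL-1βlow + CYT, from 0.18 to 0.52, and between IL-1βlow and CYT cells. This pairing is read from the data, since the labels number the replicates without naming a shared batch. It did not hold between untreated cells and any other group. The chi-square per degree of freedom between libraries of a group was at least 7.11, so no library was counted as a copy of another. Overlapping genes and promoter windows come from RefSeq tables of GRCr8, in which 29433 symbols were found.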

Additional observations from a re-analysis of the deposited data

Results flagged for a closer look

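The response to CYT differed with preconditioning for 2 of the 9 genes by the interaction term of edgeR's quasi-likelihood fit. Both were in the higher direction, in which 5.48% of all genes passed. Slc30a8 had a log2 difference of 1.17 (adjusted p = 4.4e-04): every CYT library, at 383 to 583 CPM, was under every untreated library, at 834 to 950 CPM, whereas IL-1βlow + CYT libraries, at 911 to 1066 CPM, overlapped the IL-1βlow libraries, at 731 to 959 CPM. Scgn had a log2 difference of 1.15 (adjusted p = 7.4e-04), with 206 to 325 CPM in CYT against 621 to 657 CPM in untreated libraries, and 537 to 691 CPM against 617 to 743 CPM with preconditioning. Both passed in each of the 12 fits that left out 1 library. Neither passed with glmTreat, which tests against the minimum itself (adjusted p = 0.75 for Slc30a8 and 0.85 for Scgn).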

How the results depend on the processing

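Counts of the 9 genes that passed were the same under RLE factors, at least 10 counts in every library, DESeq2, exactTest, only the groups compared, Rn45s left out and the replicate block, in every comparison each was run for. Without a filter on low counts, IL-1βlow + CYT against untreated cells went from 1 to 0. With glmTreat, which tests against the minimum itself, CYT against untreated went from 2 to 1 (Chga), and IL-1βlow + CYT against CYT, IL-1βlow + CYT against untreated and the interaction went to 0. By an adjusted p under 0.01 without the minimum the counts were 7, 5, 2 and 2 for CYT against untreated, IL-1βlow + CYT against CYT, against untreated and against IL-1βlow. Over all 14324 genes they were 7116, 5199, 1972 and 1175 in the same order. Under 0.05 the counts were 7, 7, 3 and 4, against 8926, 7267, 3124 and 1855 over all genes. Under 0.01 with the replicate block, a setting chosen after seeing the data, they were 7, 8, 3 and 4. Over all genes that setting gave 8229, 6490, 2850 and 1693. Leaving out 1 library gave 2 to 4 for CYT against untreated, 1 to 2 for IL-1βlow + CYT against CYT, 0 to 1 against untreated, 0 to 1 against IL-1βlow, 0 for IL-1βlow against untreated and 2 for the interaction. The cause of these moves was not tested.

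Over all genes, IL-1βlow against untreated moved from 62 to 229 without a filter, 141 with the replicate block, 139 with DESeq2, 138 with exactTest and 10 with glmTreat. Between untreated and other cells the replicate numbers did not pair libraries, and 9 of 12 libraries correlated best with their own number. With glmTreat the count went from 3096 to 1404 for CYT against untreated, from 1785, 858 and 556 to 457, 353 and 229 for IL-1βlow + CYT against CYT, untreated and IL-1βlow cells, and from 1530 to 182 for the interaction.

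With Rn45s left out of the total the share of the 9 genes was 2.77% in IL-1βlow, 1.30% in CYT and 1.80% in IL-1βlow + CYT cells, with the order of groups kept.

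Some values near 0 changed sign. Ptprn in IL-1βlow against untreated cells (-0.01) was 0.00016 with RLE factors, 0.0069 without a filter and 0.00021 with DESeq2, and the interaction of Ptprn2 (0.02) was -0.0112, -0.027 and -0.0112. Leaving out 1 library gave -0.15 to 0.10 for the first and -0.051 to 0.11 for the second. It gave -0.0028 to 0.18 for Vgf with CYT, -0.14 to 0.20 for Chgb with IL-1βlow, -0.12 to 0.032 for Ptprn2 in IL-1βlow + CYT against untreated, and -0.061 to 0.11 for Scg2 and -0.15 to 0.034 for Vgf in IL-1βlow + CYT against IL-1βlow cells. The interaction was not run with exactTest or with only the groups compared, as neither can give it.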

Other observations

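Some of the 9 genes had the same replicate number as the highest or the lowest library in every group. Replicate 2 was the highest library in all 4 groups for Chgb, Vgf and Ptprn, and the lowest in all 4 for Scg2 and Slc30a8. Replicate 1 was the highest for Scgn and the lowest for Chgb. In all, 4 of the 9 genes were highest in 1 number throughout (13.7% of all genes tested were) and 3 were lowest in 1 number throughout (11.5%).

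Over the 12 libraries, which share 4 treatments, Pearson's r of log2 CPM between genes was 0.96 for Chga with Ptprn, 0.96 for Chgb with Ptprn, 0.92 for Slc30a8 with Scgn and -0.79 for Scg2 with Vgf. Among 11496 other genes with a mean log2 CPM above 2, the profiles closest to Chga were those of Rspo4 (0.99), Gpd1 (0.99) and St3gal1 (0.99), and the closest to Ptprn were Gstm7 (0.99), Pcsk6 (0.99) and Nkx6-1 (0.99). Scgn was closest to LOC686151 (0.995), Leng8 (0.99) and Dynll1 (0.99), and Slc30a8 to Pcdhb17 (0.985), Khdc4 (0.984) and Fmn2 (0.982). The closest to Scg2 was Kcnma1 (0.93) and to Vgf Aig1 (0.89). For Chgb it was Vstm2b (0.97), for Scg3 Ss18 (0.97) and for Ptprn2 Adh5 (0.98).

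The log2 ratio of Chga to Chgb ran from -0.22 to 0.27 in untreated and from -0.67 to -0.28 in CYT libraries, without overlap (two-sided exact permutation test, p = 0.1, the smallest possible, 0.38 after adjustment over 15 comparisons). The log2 ratio of Slc30a8 to Scgn ran from 0.42 to 0.53 in untreated and from 0.77 to 1.10 in CYT libraries, again without overlap and with the same p.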
